A study of Mus musculus with 4 samples.

Results

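The genes that present peptides on major histocompatibility complex (MHC) class I molecules were described across 4 RNA-seq libraries of mouse blood monocytes. The members are 10 genes chosen by name, *H2-K1*, *H2-D1*, *H2-L*, *H2-T23*, *B2m*, *Tap1*, *Tap2*, *Tapbp*, *Erap1* and *Nlrc5*, among 23995 gene symbols in the deposited table. All 10 were found, each with an FPKM (fragments scaled by the length of the transcript and by the mapped fragments of the library) above 1 on average and with the status code OK in all 6 pairs of libraries. The study sorted Ly6Chi and Ly6Clo monocytes, the classical and the patrolling subset of blood, from RBP-J-deficient mice (Rbpj fl/fl Lyz2 cre/cre) and control mice (Rbpj+/+ Lyz2 cre/cre). Mice of 7 to 12 weeks, matched for gender and age, were used in experiments, and no separate age is given for the sequenced animals. Control libraries are titled WT, with the genotype Lyz2-Cre, so both genotypes carry the Cre recombinase at *Lyz2*. The *Lyz2* promoter is active in myeloid cells, neutrophils and macrophages included. Each of the 4 groups holds 1 library, and the number of mice behind a library is not given in the sources used here. No test between groups was possible, no difference has a replicate check, and all ratios below are descriptions of these libraries.

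A class I molecule pairs a heavy chain with beta-2-microglobulin and holds a short peptide at the surface of nearly every nucleated cell, where CD8 T cells and NK cells read it. Peptides cut by the proteasome enter the endoplasmic reticulum through the TAP transporter, are trimmed by ERAP1 and are loaded with the help of tapasin, the product of *Tapbp*. NLRC5 acts in the nucleus as the class I transactivator, and interferons and NF-kB are known to raise class I transcription. RBP-J is the DNA-binding factor of Notch signaling.

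The sequences upstream of 4 of these genes are shown because class I heavy chain genes are known for a shared promoter layout and because the core RBP-J site can be looked up in the others. RefSeq windows of build GRCm38.p6 were matched for 7 of the 10 genes, and for *H2-L*, *Tap2* and *Nlrc5* none was used. The 250 bases before the listed start were searched on both strands, and shares are over 32851 different windows of the same length. In *H2-K1* (chr17:34000334-34000583, minus strand) and *H2-D1* (chr17:35262844-35263093, plus strand) capitals mark, from the left, an NF-kB-like site (GGGGA and TCCC around 1 free base, found on both strands so that 2 matches overlap), a form of the interferon-stimulated response element that is 1 base shorter than usual (GAANNGAAA) and 2 CCAAT boxes. The NF-kB-like form and the shorter element were chosen after the sequences were seen.
H2-K1: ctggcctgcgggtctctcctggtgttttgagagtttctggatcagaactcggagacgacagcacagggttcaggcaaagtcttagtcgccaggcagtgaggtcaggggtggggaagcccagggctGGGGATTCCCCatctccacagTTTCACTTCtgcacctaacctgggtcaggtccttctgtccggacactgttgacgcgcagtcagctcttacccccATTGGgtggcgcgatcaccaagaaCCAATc
H2-D1: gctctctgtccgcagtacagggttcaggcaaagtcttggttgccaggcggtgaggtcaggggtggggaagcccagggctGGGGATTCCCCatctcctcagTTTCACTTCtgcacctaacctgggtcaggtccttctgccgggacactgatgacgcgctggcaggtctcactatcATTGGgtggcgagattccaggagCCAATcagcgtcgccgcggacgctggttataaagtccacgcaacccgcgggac
The windows were offset, and over the 204 aligned positions they shared, 177 bases (86.8%) were identical. The NF-kB-like form is in 0.289% and the shorter interferon element in 6.31% of all windows, and CCAAT is in 33.8% of them and in 6 of the 7 searched here. In *B2m* (chr2:122147437-122147686, plus strand) and *Tap1* (chr17:34187306-34187555, plus strand) capitals mark TGGGAA, the core of the RBP-J site.
B2m: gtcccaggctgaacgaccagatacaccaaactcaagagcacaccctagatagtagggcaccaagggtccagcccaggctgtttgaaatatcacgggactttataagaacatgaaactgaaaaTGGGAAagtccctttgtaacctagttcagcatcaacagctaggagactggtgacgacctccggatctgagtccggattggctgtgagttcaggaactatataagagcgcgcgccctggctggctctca
Tap1: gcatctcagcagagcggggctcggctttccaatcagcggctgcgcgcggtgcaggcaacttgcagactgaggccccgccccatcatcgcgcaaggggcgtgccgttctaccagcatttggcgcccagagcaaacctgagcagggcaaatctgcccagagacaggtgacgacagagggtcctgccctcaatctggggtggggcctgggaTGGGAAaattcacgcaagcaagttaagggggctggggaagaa
TGGGAA was in the windows of *B2m*, *Tap1* and *Tapbp*, 3 of the 7 genes, and in 21.6% of all windows. In *B2m* it overlaps a match to another NF-kB-like form, GGGA and TTTCC around 1 free base, which is in 0.356% of all windows, and lies next to a match to the full interferon element, GAAA repeated after 2 free bases, which is in 2.98%. *H2-T23* also had a match to the full interferon element. A further NF-kB-like form, GGGA and TTCCC around 1 free base, was in 0.32% of all windows and in none of the 7. TGACG, a core of the cyclic AMP response element, was in 17.8% of all windows and in those of *H2-K1*, *H2-D1*, *B2m* and *Tap1*. A match is a run of letters and no measure of binding.

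The FPKM values summed to between 711533 and 885652 per library, and the number of fragments behind them was not used here, so the depth is unknown and no interval is given. In Ly6Clo monocytes the FPKM of *Rbpj*, the deleted gene, was 8.30 for control mice against 2.43 without RBP-J, and in Ly6Chi monocytes it was 14.4 against 2.85. The monocyte genes *Csf1r*, *Itgam*, *Cd14*, *Lyz2*, *Cx3cr1* and *Fcgr1* were present in all 4 libraries. The 6 Ly6Chi markers summed to 74.6 (control) and 575.0 (RBP-J-deficient) in the Ly6Clo libraries, against 3593 and 2744 in the Ly6Chi libraries. Most of the Ly6Clo sums was *Ccr2*, at 59.2 (control) and 473.7 (RBP-J-deficient). The study reports *Ccr2* as highly expressed in RBP-J-deficient Ly6Clo monocytes. Of other blood cells, the 6 T cell markers summed to at most 4.29 and the 5 NK cell markers to at most 3.33, with 1 to 5 of the first and 1 to 4 of the second at 0 in a library. The 6 B cell markers summed to between 26.2 and 102.1, most of it *Cd79b*. *Actb*, at 27260 (Ly6Clo) and 22795 (Ly6Chi) in the control libraries, carries a value of 0 in the RBP-J-deficient libraries, so no 0 was read as absence.

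*B2m* and *H2-D1* had the highest values of the 10 genes in every library, followed by *H2-K1*. *B2m*, which encodes the shared light chain, had FPKM values of 12663 (control Ly6Clo), 10881 (RBP-J-deficient Ly6Clo), 8013 (control Ly6Chi) and 9559 (RBP-J-deficient Ly6Chi). It was among the 7 highest of the 23995 symbols in every library. *H2-D1*, a classical heavy chain, had 4202, 2111, 2853 and 2397 in the same order. *H2-K1*, the other classical heavy chain, had 1600, 1395, 764 and 887. Thus *H2-D1* stood above *H2-K1* everywhere, by 2.63-fold in control Ly6Clo, 1.51-fold in RBP-J-deficient Ly6Clo, 3.74-fold in control Ly6Chi and 2.70-fold in RBP-J-deficient Ly6Chi monocytes. *Tapbp* had 277, 361, 331 and 298. *H2-T23*, the nonclassical heavy chain Qa-1 that is a ligand of NK cell receptors, had 225, 399, 270 and 391. These genes formed a middle tier, with both RBP-J-deficient libraries above both control libraries for *H2-T23*. *Tap1* had 68.3, 32.1, 67.9 and 51.6, and *Tap2*, its partner in the transporter, had 63.0, 18.7, 51.7 and 29.3. For each TAP subunit both RBP-J-deficient libraries lay below both control libraries, and the same held for *H2-D1* and *H2-L*. *Nlrc5*, like *H2-T23*, had both RBP-J-deficient libraries above both control libraries. The share of all genes that separate in this way was not counted, so it is not read as a trait of these members. *Erap1*, the trimming peptidase, had 15.1, 15.8, 13.5 and 11.5. *Nlrc5* had 6.30, 14.8, 5.16 and 7.57, the lowest of the 10 in all libraries except RBP-J-deficient Ly6Clo, where *H2-L* was lower at 10.9. FPKM is scaled by length, so these levels can be compared between genes, but with 1 library per group no spread shows which neighbours in the order differ.

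**Figure D1:**
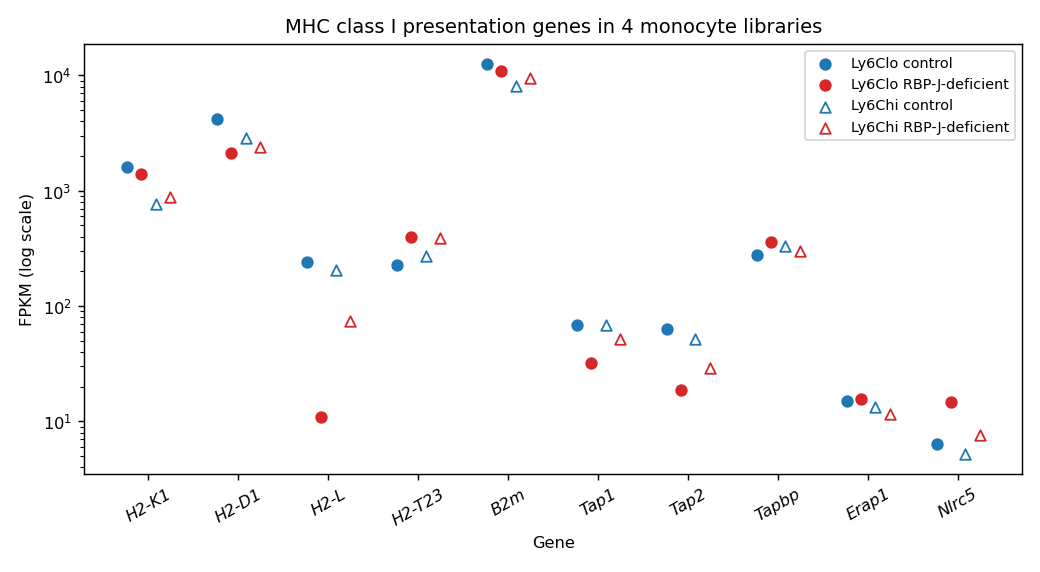
FPKM on a log axis (y) of the 10 genes (x), 1 point per library, with filled circles for Ly6Clo and open triangles for Ly6Chi monocytes, blue for control and red for RBP-J-deficient mice. *B2m* lies at the top between 8013 and 12663, and *H2-L* spans the widest range, from 10.9 to 243. Both red points lie below both blue ones for *Tap1*, *Tap2*, *H2-D1* and *H2-L*, and above them for *H2-T23* and *Nlrc5*.

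In Ly6Clo monocytes, the question was which genes differ when RBP-J is missing. The transporter and 1 classical heavy chain were lower, *Nlrc5* and *H2-T23* were higher, and *B2m* and *H2-K1* were closer to equal. *Tap2* was 3.25-fold lower in the RBP-J-deficient library, a log2 ratio of (FPKM + 1) of -1.70, and 2.83% of the 9419 genes whose FPKM averaged 1 or more, called expressed genes from here on, had a ratio as low. *Tap1* was 2.09-fold lower, at -1.06, and 10.1% of these genes were as low. *H2-D1* was 1.99-fold lower, at -0.99, just short of 2-fold. *Nlrc5* was 2.16-fold higher, at 1.11, with 7.03% of genes as high, and *H2-T23* was 1.77-fold higher, at 0.82. *Tapbp* had a log2 ratio of 0.38, *Erap1* of 0.06, *H2-K1* of -0.20 and *B2m* of -0.22. The class I transactivator and the TAP subunits thus had ratios of opposite sign in the same pair of libraries. With *H2-L* counted, 3 members were at least 2-fold lower and 1 at least 2-fold higher, and 20.6% of all expressed genes were past 2-fold in this pair, 11.4% lower and 9.22% higher. The median of the 10 ratios was -0.21, beside 0.04 over all expressed genes, whose interquartile range ran from -0.50 to 0.55. A correction for GC content left *Tap2* at -1.28 and moved *Tap1* to -0.71 and *H2-D1* to -0.63. It brought *H2-T23* to 1.10 and *B2m* to -0.65. With a pseudocount of 5 the ratio of *Nlrc5* was 0.81, and after rescaling to TPM, which shifted the median gene by -0.29, it was 0.86.

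The *H2-L* row cannot be read as a gene of its own. Its position on chromosome 17, 35263094 to 35267497, is that of the *H2-D1* row, base for base, so that 1 stretch of the genome has 2 rows, and how fragments were divided between them is not given in the sources used here. The H-2b haplotype of C57BL/6, the strain of the mm10 genome, is known for K and D molecules without a separate L molecule. The *H2-L* row had FPKM values of 243 (control Ly6Clo), 10.9 (RBP-J-deficient Ly6Clo), 205 (control Ly6Chi) and 73.9 (RBP-J-deficient Ly6Chi). Its log2 ratio between genotypes was -4.36 in Ly6Clo and -1.46 in Ly6Chi monocytes, the lowest of the members in both subsets. As a share of *H2-D1* and *H2-L* together it was 5.47% and 0.515% in the Ly6Clo libraries, and 6.71% and 2.99% in the Ly6Chi libraries. In Ly6Clo monocytes the 2 rows summed to 4445 (control) and 2122 (RBP-J-deficient), a log2 ratio of -1.07, against -0.99 for *H2-D1* alone. In Ly6Chi monocytes the sums were 3058 and 2470, a log2 ratio of -0.31. Apart from *H2-L*, no member was past 5.7-fold upward or 0.2-fold downward on (FPKM + 1) in any comparison described here. These are the fold thresholds of the study, which also set a p-value condition that was not applied here. *H2-L* passed the lower threshold between the Ly6Clo libraries, where 1.03% of expressed genes were past either threshold, and between the RBP-J-deficient subsets, where 1.22% were. It did not between the Ly6Chi libraries (0.34%) or the control subsets (2.18%).

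**Figure D2:**
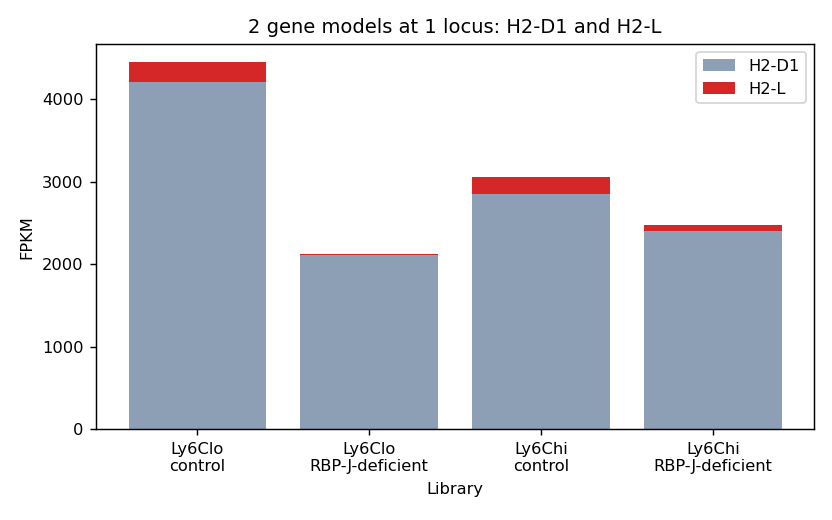
Stacked bars of FPKM (y) for *H2-D1* (grey) and *H2-L* (red), 2 rows with the same position, in each of the 4 libraries (x). The *H2-L* part is 5.47% of the bar in control Ly6Clo and 0.515% in RBP-J-deficient Ly6Clo monocytes, and the whole bar is lowest in the latter.

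Similar sequence elsewhere also bears on the heavy chains. Of the 50-base windows in the longest coding GENCODE transcript, 14.3% for *H2-D1*, 8.79% for *H2-K1* and 14.96% for *H2-T23* also occur in transcripts of other genes. The genes sharing most windows with *H2-K1* were *H2-D1*, *H2-Q1* and *H2-T23*, so the classical heavy chains share sequence with each other. Those sharing most with *H2-D1* were *H2-Q1*, *H2-Q7* and *H2-Q6*, and with *H2-T23* they were *H2-T-ps*, *H2-Q1* and *Gm7030*. For *B2m*, *Erap1* and *Nlrc5* the share was 0, for *Tap1* 0.861%, for *Tap2* 0.737% and for *Tapbp* 2.001%. Fragments from the shared windows could be placed at either gene, so the heavy chain values carry this uncertainty, while those of the transporter, *B2m* and *Nlrc5* carry little of it. The deposited row of *H2-T23* spans *H2-T24* and *A930015D03Rik* as well, that of *B2m* spans *Patl2* and *Trim69*, and that of *Nlrc5* holds *Mir7072*, with 1 value given for each symbol.

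In GENCODE M21 on GRCm38, 9 of the 10 genes were found, and 6 of them lie in the MHC on chromosome 17. These are *Tapbp* (33915899 to 33929292, plus strand), *H2-K1* (33996017 to 34000347, minus strand), *Tap1* (34187553 to 34197225, plus strand), *Tap2* (34203527 to 34216321, plus strand), *H2-D1* (35262730 to 35267499, plus strand) and *H2-T23* (36029773 to 36032855, minus strand). *B2m* lies on chromosome 2 (122147686 to 122153083, plus strand), *Erap1* on chromosome 13 (74639568 to 74693201, plus strand) and *Nlrc5* on chromosome 8 (94434356 to 94527272, plus strand). The TAP genes alternate with those of the immunoproteasome, the proteasome form that favours class I peptides. In the deposited positions *Tap1* begins 225 bases after the end of *Psmb9*, *Psmb8* begins 969 bases after *Tap1*, and *Tap2* begins 3024 bases after *Psmb8*. Between the Ly6Clo libraries these neighbours differed in direction, with log2 ratios of -0.32 for *Psmb9*, -1.06 for *Tap1*, 0.53 for *Psmb8* and -1.70 for *Tap2*.

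In Ly6Chi monocytes the same genes were compared between genotypes in a pair of libraries separate from the Ly6Clo pair, and whether the same mice gave both subsets is not given. The ratio was nearer to 0 than in Ly6Clo monocytes for 7 of the 10 genes and farther from it for *H2-K1*, *B2m* and *Erap1*. Over all expressed genes the Ly6Chi pair was also narrower, with an interquartile range of -0.33 to 0.31, against -0.50 to 0.55 in the Ly6Clo pair. The share of all expressed genes nearer to 0 was not counted, so this is not read as particular to the members. *Tap2* was 1.74-fold lower in the RBP-J-deficient library, with a log2 ratio of -0.80, and *Tap1* had a ratio of -0.39. *H2-D1* had a ratio of -0.25, and of -0.09 after the GC correction. *H2-T23* was 1.45-fold higher, at 0.53, and *Nlrc5* was 1.39-fold higher, at 0.48. *H2-K1*, *B2m*, *Tapbp* and *Erap1* had ratios between -0.21 and 0.25. Only *H2-L* was past 2-fold, lower, 1 of 10 members beside 6.71% of all expressed genes, 4.27% lower and 2.44% higher. The median of the members was -0.18, beside 0.01 over all expressed genes. For *H2-D1*, *H2-L*, *Tap1*, *Tap2*, *H2-T23* and *Nlrc5* the ratio had the same sign in both subsets and was larger in Ly6Clo monocytes, and these signs were unchanged under the pseudocounts, TPM, median centring and the GC correction. No test of this difference was possible. The largest such difference apart from *H2-L* was that of *Tap2*, -0.90 on the log2 scale.

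**Figure D3:**
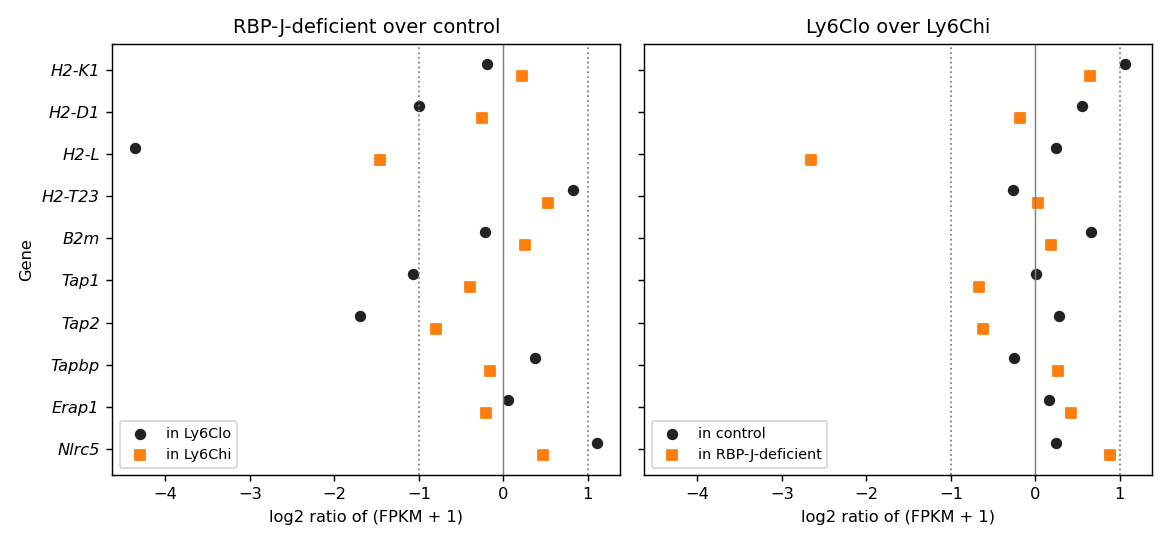
Log2 ratio of (FPKM + 1) (x) for each of the 10 genes (y), with RBP-J-deficient over control on the left (circles Ly6Clo, squares Ly6Chi) and Ly6Clo over Ly6Chi on the right (circles control, squares RBP-J-deficient). Dotted lines mark 2-fold, which *Tap1*, *Tap2*, *H2-L* and *Nlrc5* pass on the left in Ly6Clo and *H2-K1* passes on the right in control monocytes.

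Between the subsets of control mice, *H2-K1* and *B2m* were higher in Ly6Clo monocytes and the peptide supply genes were closer to equal. *H2-K1* was 2.09-fold higher in Ly6Clo than in Ly6Chi monocytes, a log2 ratio of 1.07, with 4.54% of genes as high. *B2m* was 1.58-fold higher, at 0.66, and *H2-D1* 1.47-fold higher, at 0.56. *Tap1* was at 0.01 (below 0 under TPM), *Tap2* at 0.28, *Erap1* at 0.16, *Nlrc5* at 0.25, *H2-L* at 0.24, and *Tapbp* and *H2-T23* were both at -0.26. Of the 10 members 8 had a ratio above 0, with *Tap1* and the *H2-L* row counted, and 49.7% of all expressed genes had a ratio below 0. Only *H2-K1* was past 2-fold, 1 of 10 members beside 12.7% of all expressed genes, 5.11% higher and 7.6% lower. The median of the members was 0.24, against 0.0029 over all expressed genes.

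In RBP-J-deficient mice the TAP genes had ratios below 0 between the subsets. *H2-K1* was still higher in Ly6Clo monocytes, at 0.65, and *Nlrc5* was 1.84-fold higher, at 0.88. *Tap1* and *Tap2* were lower in Ly6Clo monocytes, at -0.67 and -0.62. *H2-D1* was at -0.18, and at 0.14 after the GC correction. *B2m* had a ratio of 0.19, *H2-T23* of 0.03, *Tapbp* of 0.27 and *Erap1* of 0.42. After rescaling to TPM, which shifted the median gene by -0.20 in this pair, *B2m* was at -0.03 and *H2-T23* at -0.18, and *B2m* was also below 0 after the GC correction, so their direction depends on the scaling. *H2-L*, at -2.65, was the only member past 2-fold, beside 18.9% of all expressed genes, 10.6% lower and 8.26% higher. The median of the members was 0.11. These subset comparisons use the same 4 libraries as the genotype comparisons and are not further evidence. *B2m* was 2.09 and 2.097 times the sum of *H2-K1*, *H2-D1* and *H2-L* in control Ly6Clo and Ly6Chi monocytes, and 3.09 and 2.85 times that sum in the RBP-J-deficient libraries.

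The other genes of the pathway were taken from lists of named genes and are given by counts at 2-fold among the expressed ones. Of 14 further heavy chains and class I-like genes, 2 were past 2-fold higher and 2 past 2-fold lower between the Ly6Clo libraries, beside 9.22% and 11.4% of all expressed genes, and the median was 0.03, RBP-J-deficient over control. *H2-Q9* was higher, at 1.31, and the row of *H2-Q8* had the highest ratio, 3.55. *H2-Q1* was lower, at -1.48, and *Hfe*, which regulates iron uptake, was lower at -1.17. The *H2-Q8* values ran from 0.00186 to 10.7 across libraries. Further rows of the table name *H2-Q6* with *H2-Q8*, *H2-Q7* with *H2-Q9* and *H2-T22* with *H2-T9* jointly, so the values of these near-identical genes are uncertain. The joint row of *H2-Q6* and *H2-Q8* went the other way between the Ly6Clo libraries, with 55.9 (control) and 11.6 (RBP-J-deficient), and that of *H2-Q7* and *H2-Q9* had 99.6 and 125.7. In control mice 4 genes of this list were past 2-fold higher in Ly6Clo monocytes, *Hfe* at 2.35, *Fcgrt*, the neonatal Fc receptor, at 1.64, *H2-Q4* at 1.52 and *H2-Q1* at 1.07. Another 2 were past 2-fold lower, *H2-Q8* at -1.84 and *H2-Q10* at -1.04, beside 5.11% of expressed genes higher and 7.6% lower in this pair.

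Both TAP genes were lower without RBP-J between the Ly6Clo libraries. In that pair the median was near 0 for the loading chaperones and above 0 for the immunoproteasome and activator genes. Of 6 loading chaperones, 1 was past 2-fold higher in RBP-J-deficient Ly6Clo monocytes, beside 9.22% of all expressed genes, and the median was -0.01. This was *Canx*, encoding calnexin, with an FPKM of 213 (control) and 483 (RBP-J-deficient), a log2 ratio of 1.18. *Calr* and *Pdia3*, the calreticulin and ERp57 genes, were at -0.08 and 0.06, and *Tapbpl*, a relative of tapasin, was at -0.76. Of the 5 immunoproteasome and activator genes, *Psme2* was past 2-fold higher, from 662 to 1412, a log2 ratio of 1.09, against the same 9.22%, and the median was 0.53. The immunoproteasome subunits *Psmb8*, *Psmb9* and *Psmb10* were mixed, at 0.53, -0.32 and 0.16, and the activator gene *Psme1* was at 0.63. Of 5 peptidases none was past 2-fold in either direction, and *Tpp2* had the largest ratio, 0.65.

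Among 13 transcription regulators of class I genes, 2 were past 2-fold lower and none higher in RBP-J-deficient Ly6Clo monocytes, beside 11.4% lower and 9.22% higher of all expressed genes, and the median was -0.36. Both were NF-kB subunits, *Nfkb1* with FPKM values of 103 (control) and 31.7 (RBP-J-deficient), a ratio of -1.67, and *Rela* with 29.3 and 10.7, a ratio of -1.37. In Ly6Chi monocytes *Rela* was also lower, at -1.35, and *Nfkb1* was at 0.04. *Rfx5*, *Rfxap* and *Rfxank*, the RFX subunits that work with NLRC5, were at -0.42, 0.68 and 0.01 in Ly6Clo monocytes, at FPKM values of at most 6.14 in all libraries. *Irf1*, which carries the interferon-gamma signal to class I genes, was at -0.36. Of the 4 interferon receptor genes 1, *Ifnar1*, was past 2-fold higher, at 1.78, with 27.3 (control) and 96.1 (RBP-J-deficient) in the Ly6Clo libraries.

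The interferon response genes, 12 in number, were mostly lower in Ly6Clo than in Ly6Chi monocytes. In control mice 11 of the 12 were at least 2-fold lower in Ly6Clo than in Ly6Chi monocytes, beside 7.6% of all expressed genes, with a median of -1.69, and *Gbp2* was the exception at -0.06. The class I median over the same pair was 0.24. Between the Ly6Clo libraries 3 of the 12 were past 2-fold higher without RBP-J and 1 past 2-fold lower, beside 9.22% and 11.4% of all expressed genes. The higher were *Isg15* at 1.30, *Cxcl10* at 1.05 and *Mx1* at 1.02, and the lower was *Irf7* at -1.52.

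**Figure D4:**
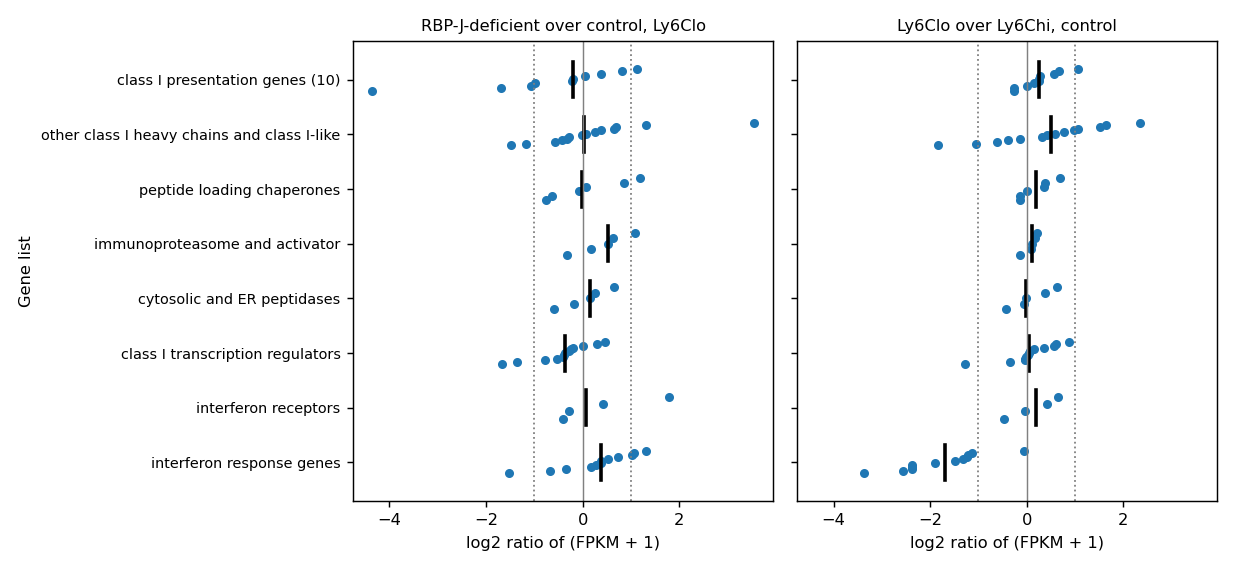
Log2 ratio of (FPKM + 1) (x) of each expressed gene (FPKM averaging 1 or more) in the class I presentation genes and 7 other lists (y), for RBP-J-deficient over control Ly6Clo monocytes on the left and Ly6Clo over Ly6Chi monocytes of control mice on the right. Points are genes, black bars are list medians and dotted lines mark 2-fold, and the interferon response genes lie to the left in the right panel at a median of -1.69.

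Several marker lists moved with these comparisons. Between the Ly6Clo libraries 4 of the 7 Ly6Clo markers were past 2-fold lower without RBP-J and 1 past 2-fold higher, beside 11.4% and 9.22% of all expressed genes. Their median was -1.16, and the 7 summed to 2296 (control) and 1602 (RBP-J-deficient). *Nr4a1*, *Itgax* and *Ace* were at -3.22, -3.08 and -2.55, *Cd36* was at 1.15, and the monocyte receptor gene *Csf1r* was at -1.36. By flow cytometry and qPCR the study reports *Nr4a1* as similar in Ly6Clo monocytes of both genotypes, unlike in these libraries. Between the Ly6Clo libraries 5 of the 6 Ly6Chi markers were past 2-fold higher without RBP-J, beside 9.22% of all expressed genes, with a median of 2.30. In the same pair 3 of the 4 expressed B cell markers were past 2-fold lower, beside 11.4% of all expressed genes. These were *Cd79a*, from 9.02 to 1.13, *Ms4a1*, from 3.27 to 0.06, and *Cd22*, from 12.9 to 0.56. The other, *Cd79b*, was higher, from 41.9 to 100.2. *Pax5*, a defining B cell gene, was at 0 in 3 of the 4 libraries, which is not read as absence. The 5 platelet markers summed to 125.5 and 124.1 in the Ly6Clo libraries (control, then RBP-J-deficient) and to 350.3 and 293.3 in the Ly6Chi libraries. All 5 were past 2-fold lower in Ly6Clo than in Ly6Chi monocytes in both genotypes, beside 7.6% (control) and 10.6% (RBP-J-deficient) of all expressed genes. *Gp9* and *Itga2b* were past 2-fold lower without RBP-J in both subsets, beside 11.4% (Ly6Clo) and 4.27% (Ly6Chi) of all expressed genes. The red cell gene *Hbb-bs* had 11.1, 54.6, 32.7 and 59.2 in the same order of libraries. The neutrophil markers found, 5 of 6, summed to 202.8, 146.2, 1315 and 1051, most of it *S100a8*, and the 6 dendritic cell markers to 44.5, 31.3, 196.8 and 145.8, most of it *Cd209a*. Whether these values come from other cells or from the sorted monocytes was not tested, and neither was the part of such cells in the class I ratios. The log2 ratio between the Ly6Clo libraries also ran against the GC content of the transcripts, with a Spearman rho of -0.36 over 8948 genes, which share these 2 libraries. The GC content was 55.8% for *Tap1*, 56.9% for *Tap2* and 55.9% for *H2-D1*, 57.1% for *Tapbp*, 54.3% for *H2-K1*, 54.5% for *H2-T23*, 52.6% for *Nlrc5*, 41.5% for *Erap1* and 41.2% for *B2m*. In bulk libraries a lower value can come from fewer cells that express a gene or from less RNA per cell, and these cannot be told apart.

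The members did not share a pattern over the 4 libraries. *H2-D1* lay nearest to their mean profile, at a Euclidean distance of 0.304 in log2(FPKM + 1) centred over the libraries, and *H2-L* farthest, at 3.06. The mean profile rests largely on *H2-L* in RBP-J-deficient Ly6Clo monocytes, where it was -0.28 over the 10 genes, -0.0044 over the other 9 and -2.78 for *H2-L*, so the nearest genes rest on that row too. Of 8173 other genes, each at 1 FPKM or more in every library, the 5 nearest to the mean profile included *Itfg2*, *Pmpca*, *4930470H14Rik* and *Idua*, at distances of 0.0311 to 0.0644. With 4 libraries such likeness says little.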

How the data were processed

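Paired-end RNA-seq of 4 monocyte libraries, sequenced on an Illumina HiSeq2500, was used as deposited. The authors deposited FPKM values per gene for each of the 6 pairs of libraries. The submitters' processing notes name CASAVA 1.8, TopHat2 2.1.0, Cufflinks 2.2.1 and mm10, without their roles. The authors' p-values, q-values and fold columns were not used. Values of the same library were equal between pairs for all members, rows sharing a symbol were summed, and ratios are log2 of (FPKM + 1), which understates the change of low genes. Genes averaging an FPKM of 1 or more were compared. With 1 library per group no test was made, and the depth is unknown. FPKM is relative to the mapped fragments of each library, so a few very abundant transcripts can shift all others.

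The members and lists were chosen with earlier results of these data known. Named genes are the 10 members, *Rbpj*, any gene of the lists, and the 5 genes nearest to the mean centred profile, and some genes that this rule covers are not reported here. The GC correction subtracted a lowess trend (fraction 0.3, 3 iterations) fitted over the 6086 genes that averaged an FPKM of 5 or more, and *H2-L*, with no GC content, kept its ratio. Promoters came from RefSeq and positions from the deposited table or GENCODE M21 (GRCm38). Alternatives covered pseudocounts of 0.1 and 5, the FPKM filter, median centring, TPM, GC content, thresholds and the *H2-L* row. Procedures were tested on simulated data. Python 3.11.15, numpy 2.4.6, pandas 2.3.3, statsmodels 0.14.6, Biopython 1.88 and matplotlib 3.10.9 were used.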

Additional observations from a re-analysis of the deposited data

Results flagged for a closer look

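For 4 of the 10 genes the log2 ratio of RBP-J-deficient over control monocytes had opposite signs in the Ly6Clo and Ly6Chi libraries. The ratio in Ly6Clo minus that in Ly6Chi monocytes was -0.41 for *H2-K1* and -0.47 for *B2m*, which were lower without RBP-J in Ly6Clo and higher in Ly6Chi monocytes. It was 0.53 for *Tapbp* and 0.26 for *Erap1*, which were higher in Ly6Clo and lower in Ly6Chi monocytes. Each side rests on 1 library per genotype and the difference was not tested. The sign in Ly6Clo monocytes turned for *H2-K1* and *Erap1* under the GC correction and for *Erap1* under TPM, and that of *Tapbp* in Ly6Chi monocytes turned under the GC correction.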

How the results depend on the processing

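No paired analysis was possible because each group holds 1 library, and for the same reason no library could be left out. A median was taken as moved when it differed by more than 0.1 on the log2 scale, and summing *H2-D1* with *H2-L* and TPM without *Actb* were chosen after seeing the data. Between the Ly6Clo libraries the median of the members, -0.21, was -0.51 under TPM, -0.57 under TPM without *Actb* and -0.50 after the GC correction, and the count past 2-fold, 4, was 2 with a pseudocount of 5 and 1 at the 5.7 and 0.2 thresholds. Between the Ly6Chi libraries the median, -0.18, was -0.28 under TPM, -0.33 under TPM without *Actb* and -0.018 after the GC correction, and the count of 1 was 0 without *H2-L*, 0 with the rows summed and 0 at 5.7 and 0.2. Between the control subsets the count of 1 was 0 at 5.7 and 0.2. Between the RBP-J-deficient subsets the median, 0.11, was -0.10 under TPM and -0.10 under TPM without *Actb*, and the count of 1 was 2 after the GC correction, 0 without *H2-L* and 0 with the rows summed. The 2 values past the 5.7 and 0.2 thresholds, both of *H2-L*, became 1 with a pseudocount of 5, 0 without *H2-L* and 0 with the rows summed. Of 200 single values under the alternatives, 192 kept their side of 2-fold, 4 fell short of it (*Tap1* at -0.98 and *Nlrc5* at 0.81 with a pseudocount of 5, *Nlrc5* at 0.86 under TPM, *Tap1* at -0.71 after the GC correction, all between the Ly6Clo libraries) and 4 passed it (*H2-D1* under TPM and median centring, *H2-T23* and *Nlrc5* after the GC correction), and 9 values within 2-fold changed sign. The causes were not tested. The depth is unknown, so its effect on low values, such as those of *Nlrc5*, *Erap1* and *H2-L*, cannot be given.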
